A study of Homo sapiens with 6 samples.

Results

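The genes described here encode the proteins of the cytosolic ribosome and of the mitochondrial ribosome, in TOV21G, a human cell line from an ovarian clear cell carcinoma. Members were chosen by gene symbol alone. Symbols that begin with RPL or RPS and a digit, without the RPS6K kinases and RPS27L, gave 83 cytosolic members, and symbols that begin with MRPL or MRPS and a digit gave 78 mitochondrial members. Together they are 161 of the 16910 genes of the deposited table. The cytosolic set holds 72 core proteins, of which 42 belong to the large subunit and 30 to the small one. Its other members are 6 paralogs, 3 read-through genes, the pseudogene RPS27AP5 and RPS19BP1, which encodes a binding protein of RPS19. Of the mitochondrial set, 49 members were counted to the large and 29 to the small subunit by the letter in the symbol alone. Whether each protein belongs to that subunit was not checked. RPL41 and RPL10L were not analysed here.

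RNA was sequenced in 6 libraries, in 3 groups of 2. The siGYS1 group carries a knockdown of GYS1, the muscle-type glycogen synthase, the sip53 group a knockdown of the tumour suppressor p53, and NC is read as the control siRNA. The labels call the NC cells WT and say nothing more of the control, the siRNA sequences or the time after transfection. All libraries come from 1 cell line, and nothing says that replicates were separate cultures, so p-values measure no more than the spread among these libraries, which may be technical. Both knockdowns were set against the same pair of NC libraries, so their fold changes share that error.

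Cytosolic ribosomes make nearly all proteins of the cell from nuclear-encoded mRNA, while mitochondrial ribosomes translate the few mRNAs of the mitochondrial genome, which encode subunits of the respiratory chain and of ATP synthase. Transcripts of most cytosolic ribosomal proteins begin with a C followed by a run of pyrimidines, the 5′ terminal oligopyrimidine (TOP) tract, through which mTORC1 and LARP1 set their translation and stability. RPL5 and RPL11, together with 5S rRNA, bind MDM2 when ribosome assembly is disturbed, which ties the ribosomal proteins to p53.

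Start windows are shown because the TOP tract marks the cytosolic set and because RPS27, RPL6, MRPL9, MRPL42 and MRPS31 carry the largest called falls among the members against NC. Each window runs from 22 bases before to 8 bases from the annotated start onward, on the gene's own strand, with bases of a tract that begins at the start in capitals.
RPS27, chr1:153990740-153990769, plus strand: gggcaggatttccgctttcgctCCTTTCCg
RPL11, chr1:23691784-23691813, plus strand: cctcggccggaagctccgctttCTCTTCCT
RPL13, chr16:89560660-89560689, plus strand: gagtgcattgcggggccgcttcCTTTCCgc
RPL6, chr12:112409278-112409307, minus strand: aggaagcggggagacggcgcgtgcactgtg
MRPL9, chr1:151763489-151763518, minus strand: ccggggtcctccctcaggtctcattctgtg
MRPL42, chr12:93467492-93467521, plus strand: agcgctgtttcgtgggaccaggattgaaac
MRPS31, chr13:40771183-40771212, minus strand: aagagagggcggggacgtgtttggcagcgg
The windows are RefSeq sequence of build GRCh38.p14. RefSeq lists several starts for RPL11, RPL13 and RPL6, and the window with a tract is shown where there is one; neither start of RPL6 has it. A C followed by at least 4 pyrimidines stood exactly at a listed start in 41 of 57 matched core cytosolic genes (71.9%), against 6 of 69 matched mitochondrial genes (8.7%) and 769 of 10494 matched genes among all those tested (7.33%). A start that RefSeq places a few bases away hides a tract: within 10 bases of the start, 52 of the 57 core genes held one (91.2%), against 24 of the 69 mitochondrial genes (34.8%) and 42.2% of the matched tested genes. RPS27, which fell with siGYS1, and RPL11, which did not pass in any comparison of the full fit, both have the tract.

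Library totals were 17425000 to 18097337 read counts. GYS1 was at 2.33 and 2.15 TPM in siGYS1 libraries and 39.3 and 40.7 TPM in sip53 libraries, against 37.6 and 33.4 TPM in NC libraries. The level checks the label of siGYS1. Relative to the 6-library mean, counts rose with transcript length in siGYS1 replicate 1 (Spearman rho 0.54 across 11286 genes) and fell with it in NC replicate 2 (-0.39), against -0.08 to 0.04 in the other 4 libraries. The recovered length of the members, that is, the length implied by the deposited counts and FPKM, has a median of 395.4 bases in the cytosolic and 862.6 bases in the mitochondrial set, against 2472 bases over all genes, so both sets are exposed to this. The epithelial marker KRT8 was at 189 and 213 TPM with siGYS1 and 207 and 197 TPM with sip53, against 284 and 278 TPM with NC. Of 9 tested epithelial markers 3 fell and 0 rose with siGYS1 (33.3% and 0%, against 9.24% and 10.4% of all tested genes). With sip53, 3 fell and 1 rose (33.3% and 11.1%, against 26.5% and 23.4%). All 10 summed to 860 and 875 TPM with siGYS1 and 882 and 851 TPM with sip53, against 1062 and 1011 TPM with NC. The 5 fibroblast markers summed to 213 and 186 TPM in siGYS1 libraries and 119 and 120 TPM in sip53 libraries, against 234 and 216 TPM in NC libraries, most of it from COL1A2. With sip53, COL1A2 (-0.88, adjusted p = 2.3e-05) and COL1A1 (-0.43) fell. DCN rose (4.23), at 70 and 57 read counts with sip53 against 3 and 4 with NC. Of the 3 tested fibroblast markers 66.7% thus fell and 33.3% rose, against 26.5% and 23.4% of all tested genes. With siGYS1 0 of the 3 passed, against 9.24% and 10.4%. The 4 endothelial markers summed to 0.58 and 0.43 TPM in siGYS1 libraries and 1.99 and 1.2 TPM in sip53 libraries, against 0.62 and 0.42 TPM in NC libraries. Both tested ones, PECAM1 (2.05) and CDH5 (1.51), rose with sip53 (100%, against 23.4% of all tested genes). The 3 leukocyte markers in the table summed to 0.5 to 1.76 TPM in a library. The fibroblast and endothelial markers thus differ between sip53 and both other groups, and the epithelial sum was lower with both knockdowns than with NC. Of the comparisons against NC, that of sip53 had more members called. The part of these markers in the results was not tested.

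The cytosolic members were among the most abundant transcripts of these cells. The mean TPM of the core genes over the 6 libraries ran from 203 for RPS28 to 5186 for RPS29, with a median of 1840, and 63 of 72 lay above 1000 TPM. Of the 83 cytosolic members 53 were among the 100 genes with the highest mean TPM of the table and 68 among the 200 highest. RPS29, RPS18, RPS24 and RPS27, all proteins of the small subunit, were among the 5 highest of the set. The TPM of RPS29 and RPS27 rest on recovered lengths of 45.8 and 81.9 bases, which makes their rank depend on that length. Mitochondrial members were far lower, from 14.4 TPM for MRPL50 to 513 TPM for MRPL33 with a median of 69.7, and 0 of 78 reached the highest 200. The medians of both sets differ by a factor of 26.4. RPL3L, the muscle paralog of RPL3, was at 0.04 to 0.11 TPM and was removed by the filter on low counts, so 82 cytosolic and 78 mitochondrial members were tested.

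The cytosolic set took 12.3% and 13.8% of all TPM in siGYS1 libraries and 14.6% and 14.4% in sip53 libraries, against 13.6% and 15.4% in NC libraries. The groups overlap, apart from siGYS1 and sip53. The ratio of the mean share was 0.898 ± 0.106 (propagated SD, n = 2 each) for siGYS1 to NC and 1 ± 0.085 for sip53 to NC. The mitochondrial set took 0.641% and 0.7% in siGYS1 libraries and 0.614% and 0.62% in sip53 libraries, against 0.732% and 0.766% in NC libraries. Here both knockdowns lay below both NC libraries, at ratios of 0.896 ± 0.0623 for siGYS1 and 0.824 ± 0.0268 for sip53. A score over the members has no test here, and with 2 libraries a group the smallest 2-sided exact permutation p is 0.333. In siGYS1 and in NC libraries both sets moved between replicates by more than their medians differed from NC in either comparison below, and in sip53 libraries by less. From replicate 1 to replicate 2, the median cytosolic member differed by 0.27 on the log2 CPM scale in siGYS1 libraries (79 of 82 higher in replicate 2) and by 0.26 in NC libraries (80 of 82), but by 0.02 in sip53 libraries. In siGYS1 and NC libraries the mitochondrial medians were 0.21 and 0.15, against 0.04 in sip53 libraries, while the median of all tested genes stayed within 0.01 of 0. The part of transcript length in these shifts was not tested.

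**Figure D1:**
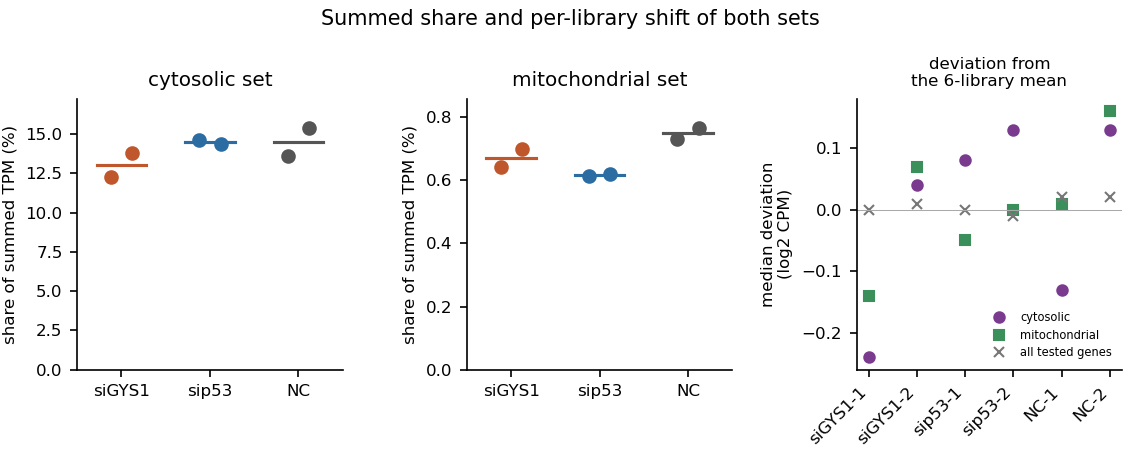
Share of summed TPM taken by the cytosolic set and by the mitochondrial set (left and middle, percent; 1 point per library, lines are group means), and the median deviation of each set from the 6-library mean in each library (right, log2 CPM). The cytosolic share spans 12.3% to 15.4%, both knockdowns lie below NC in the mitochondrial share, and siGYS1 replicate 1 has the lowest median in both sets. In the median deviation of the mitochondrial set, siGYS1 replicate 2 lies above NC replicate 1.

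With siGYS1, 1 cytosolic gene fell far more than the rest. RPS27, a zinc-binding protein of the small subunit (chr1:153990755-153992155, plus strand, GENCODE 29 on GRCh38), had 1723 and 1902 TPM in siGYS1 libraries and 4264 and 3828 TPM in sip53 libraries, against 4124 and 4776 TPM in NC libraries. Both siGYS1 values are below those of every other library, and sip53 overlaps NC. The log2 fold change was -1.19 for siGYS1 against NC (SE 0.12, adjusted p = 0.000223), which is 43.9% of the NC level, and 0.00 for sip53 against NC (SE 0.11, adjusted p = 0.983). The direct difference of siGYS1 against sip53 was -1.19 (SE 0.12, adjusted p = 4.2e-05). The fall kept its call in all 16 alternative settings, at -1.36 to -0.93, and was -1.04 with offsets corrected for length. RPS27 is among the shortest members, and its reads could be shared with RPS27 pseudogenes and with RPS27L, since the treatment of multiply mapped reads is not stated. RPS27L, a separate gene that the symbol rule leaves out, was at 320 and 382 TPM with siGYS1, 272 and 249 TPM with sip53, and 370 and 375 TPM with NC.

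The other cytosolic members stayed close together with siGYS1. In all, 1 of 82 rose and 2 fell (1.22% and 2.44%), against 10.4% of all tested genes that rose and 9.24% that fell. Their median log2 fold change was -0.09 with an interquartile range of 0.11, against -0.01 and 0.41 over all tested genes. RPL26L1, a paralog of RPL26, had 64.2 and 80.9 TPM in siGYS1 libraries, against 99.2 and 111 TPM in NC libraries (log2 -0.53, SE 0.14, adjusted p = 0.0246). That call is lost in 7 of 16 settings, at -0.72 to -0.21 over all of them, among them the fits without siGYS1 replicate 1, NC replicate 2 or either sip53 library. The member that rose was the read-through gene RPL36A-HNRNPH2, with 33 and 16.1 TPM in siGYS1 libraries, against 12.6 and 8.6 TPM in NC libraries (log2 1.25, SE 0.32, adjusted p = 0.0251). The groups do not overlap, but replicate 1 is far above replicate 2 with siGYS1, and without siGYS1 replicate 1 the call is lost. The gene shares exons with RPL36A and HNRNPH2, so its count is uncertain. RPL36A itself was at -0.07 (adjusted p = 0.723). The count of falls is 15 without siGYS1 replicate 2, and 1 without siGYS1 replicate 1, either sip53 library or NC replicate 2. The count of rises is 0 without siGYS1 replicate 1, sip53 replicate 1 or NC replicate 2. The median runs from -0.21 without siGYS1 replicate 2 or NC replicate 1 to 0.04 without NC replicate 2, and is 0.03 without siGYS1 replicate 1. With both length-dependent libraries left out, siGYS1 replicate 1 and NC replicate 2, a choice made after seeing the data, 19 members rose, 1 fell and the median was 0.18. The sign of the median thus depends on the libraries kept. For these alternative fits the share of all tested genes called is not given, so their counts have no background beside them.

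Of 78 mitochondrial members, 0 rose and 5 fell with siGYS1 (6.41%, against 9.24% of all tested genes). At an unadjusted p below 0.05 in edgeR 2 rose, and with DESeq2 or limma 0 did. For these and for the fits below that leave out libraries, the share of all tested genes called is not given. Their counts thus have no background beside them. The median was -0.14 with an interquartile range of 0.17, against -0.01 and 0.41 over all tested genes. The largest fall was that of MRPS31, a small-subunit protein (chr13:40729135-40771173, minus strand), with 42.4 and 41.3 TPM in siGYS1 libraries, against 65.1 and 66.3 TPM in NC libraries. Replicates lie close together and the groups do not overlap (log2 -0.65, SE 0.09, adjusted p = 0.00154), a call kept in all 16 settings. MRPS2, another small-subunit protein, had 40.8 and 43.4 TPM with siGYS1, against 57.1 and 59.4 TPM with NC (log2 -0.46, SE 0.10, adjusted p = 0.0121). Leaving out NC replicate 2 ends that call (-0.39, adjusted p = 0.111). The other 3 falls, MRPL37 (-0.40), MRPL24 (-0.37) and MRPL1 (-0.36), all of the large subunit, had adjusted p-values of 0.0242 to 0.0385 and are lost in 7 to 9 settings each, among them the fits without siGYS1 replicate 1, NC replicate 2 or either sip53 library. The count of 5 falls is 23 without siGYS1 replicate 2, 2 without siGYS1 replicate 1 or either sip53 library, and 1 without NC replicate 2. The count of rises is 2 without siGYS1 replicate 1. Without both length-dependent libraries 2 rose, 1 fell and the median was 0.05.

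**Figure D2:**
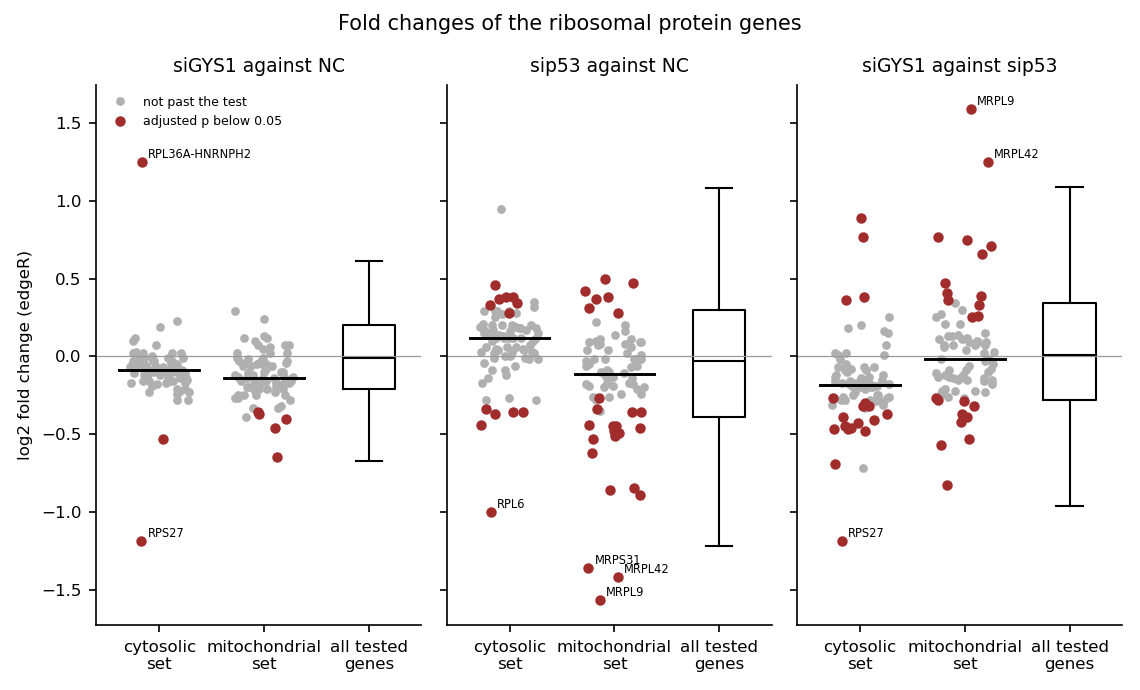
Log2 fold changes (edgeR) of the cytosolic and mitochondrial members in each comparison, 1 point per tested member, red where the adjusted p is below 0.05; horizontal lines are set medians, and the box of all tested genes shows the median, the quartiles and, as whiskers, the 5th and 95th percentiles. RPS27 at -1.19 stands apart from the other cytosolic members with siGYS1, and RPL6, MRPL9, MRPL42 and MRPS31 lie between -1.0 and -1.57 with sip53.

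With sip53, the outstanding cytosolic change was a fall of RPL6, a large-subunit protein (chr12:112405190-112418838, minus strand). RPL6 had 1502 and 1518 TPM in siGYS1 libraries and 809 and 821 TPM in sip53 libraries, against 1600 and 1802 TPM in NC libraries. The sip53 replicates are close to each other and far below NC, while siGYS1 lies just below NC. The log2 fold change was -1.0 for sip53 against NC (SE 0.11, adjusted p = 7.33e-05) and -0.23 for siGYS1 against NC (adjusted p = 0.169), and the direct difference of siGYS1 against sip53 was 0.77 (SE 0.11, adjusted p = 0.000418). The fall with sip53 was called in all 16 settings, at -1.13 to -0.85.

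Around RPL6, the cytosolic members went both ways with sip53. Of 82, 7 rose and 6 fell (8.54% and 7.32%), against 23.4% of all tested genes that rose and 26.5% that fell. Their median was 0.12 with an interquartile range of 0.20, against -0.03 and 0.69 over all tested genes. Among the falls, RPL3, which lines the peptidyl transferase center, had 1620 and 1627 TPM in sip53 libraries, against 2100 and 2297 TPM in NC libraries (log2 -0.37, SE 0.11, adjusted p = 0.0191). RPL26L1 (-0.44, adjusted p = 0.0211) and RPL13 (-0.36, adjusted p = 0.0287) fell by similar amounts. The calls of RPL3, RPL26L1 and RPL13 are each lost without either sip53 library or NC replicate 2. RPL10A, the protein of the mobile stalk where spent tRNA leaves the large subunit, was at 1333 and 1439 TPM in siGYS1 libraries and 1200 and 1190 TPM in sip53 libraries, against 1535 and 1718 TPM in NC libraries. It fell with sip53 (log2 -0.36, SE 0.11, adjusted p = 0.0208) and was at -0.21 with siGYS1 (adjusted p = 0.2). The adjusted p of this fall is 0.183 without NC replicate 2 (-0.22), 0.131 and 0.104 in fits that lack the first or the second sip53 library, and 0.0508 with no filter on low counts, so each of these ends the call.

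The largest called rise was that of the read-through gene RPL17-C18orf32 (log2 0.46, SE 0.09, adjusted p = 0.00184), called in all settings but with reads that RPL17 and C18orf32 could share. RPL14, a large-subunit protein, had 808 and 828 TPM in sip53 libraries, against 624 and 716 TPM in NC libraries (log2 0.38, SE 0.12, adjusted p = 0.02). RPL39 (0.37, adjusted p = 0.0422) and RPS18 (0.34, adjusted p = 0.0344) rose as well. The calls of RPL14, RPL39 and RPS18 are each lost without sip53 replicate 1, sip53 replicate 2 or NC replicate 1 and with limma on FPKM. RPL5, at 1141 and 1140 TPM with sip53 against 1049 and 1150 TPM with NC, did not pass (0.13, adjusted p = 0.322), nor did RPL11, at 1561 and 1606 TPM with sip53 against 1449 and 1648 TPM with NC (0.12, adjusted p = 0.484). With siGYS1, RPL5 was at -0.05 and RPL11 at -0.08. The 7 rises are 17 without siGYS1 replicate 1, 19 without siGYS1 replicate 2, 11 without NC replicate 2, 2 without sip53 replicate 1 and 1 without sip53 replicate 2 or NC replicate 1. The 6 falls are 1 without either sip53 library or NC replicate 2. The median is -0.01 without NC replicate 1 and 0.24 without NC replicate 2. Without both length-dependent libraries 53 of 82 rose and 6 fell. With offsets corrected for length, 30 rose and 10 fell. The shares of all tested genes called in these alternative fits are not given here, so the counts have no background beside them.

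**Figure D3:**
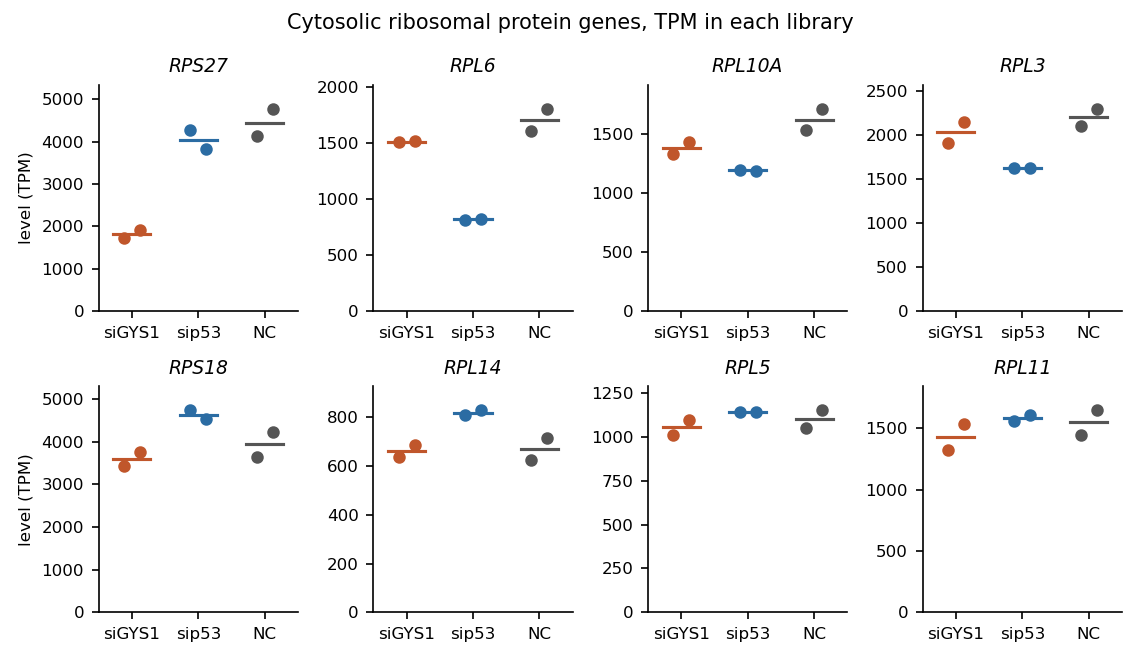
TPM of 8 cytosolic ribosomal protein genes in each library (points) with group means (lines); the axes start at 0. RPS27 is low in both siGYS1 libraries and RPL6 in both sip53 libraries, while RPL5 and RPL11 overlap in siGYS1 and NC.

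The mitochondrial set changed more widely with sip53 than the cytosolic set, but less widely than all tested genes. Of 78 members 19 fell (24.4%, against 26.5% of all tested genes) and 7 rose (8.97%, against 23.4%). The share that fell is near that of all tested genes. The median was -0.11 with an interquartile range of 0.35, against -0.03 and 0.69 over all tested genes and 0.12 and 0.20 in the cytosolic set. MRPL9, a large-subunit protein (chr1:151759643-151763564, minus strand), had 104 and 97.4 TPM in siGYS1 libraries and 28.7 and 29.6 TPM in sip53 libraries, against 92.8 and 89.4 TPM in NC libraries. It was thus at 33.6% of NC with sip53 and at the NC level with siGYS1 (log2 -1.57, SE 0.10, adjusted p = 2.11e-06 with sip53; 0.02 with siGYS1). MRPL42, counted to the large subunit by its symbol (chr12:93467488-93516213, plus strand), had 80.4 and 73.5 TPM with siGYS1 and 31.4 and 31.9 TPM with sip53, against 89.7 and 86.1 TPM with NC (sip53 log2 -1.42, SE 0.09, adjusted p = 3.5e-06). MRPS31 had 24.3 TPM in both sip53 libraries, against 65.1 and 66.3 TPM with NC (log2 -1.36, SE 0.09, adjusted p = 4.35e-06). MRPS31 was the member of either set that fell in both knockdowns and kept both calls in all settings, and it was higher with siGYS1 than with sip53 (0.71, SE 0.10, adjusted p = 0.000302).

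Smaller falls were shared between the subunits. MRPS34, a small-subunit protein, had 43.9 and 47.9 TPM in sip53 libraries, against 89.8 and 90.3 TPM in NC libraries (log2 -0.89, SE 0.13, adjusted p = 0.000314). MRPL33, the most abundant mitochondrial member, had 381 and 338 TPM in sip53 libraries, against 630 and 650 TPM in NC libraries (log2 -0.86, SE 0.11, adjusted p = 0.00015). MRPS26 had 37.4 and 41.9 TPM in sip53 libraries, against 75.6 and 75.3 TPM in NC libraries (log2 -0.85, SE 0.12, adjusted p = 0.000398). With siGYS1 MRPS34, MRPL33 and MRPS26 were at -0.12, -0.20 and -0.10 and did not pass, and the falls of all 3 with sip53 were called in all settings. By symbol, 13 of the 49 members counted to the large subunit fell and 3 rose (26.5% and 6.12%). Of the 29 counted to the small subunit, 6 fell and 4 rose (20.7% and 13.8%). Over all tested genes 26.5% fell and 23.4% rose. These counts compare symbols, since the subunit of each protein was not checked.

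Among the mitochondrial members that rose with sip53, MRPS10 had 50.2 and 49 TPM, against 38.5 and 35.1 TPM in NC libraries (log2 0.50, SE 0.08, adjusted p = 0.000883). MRPS35 had 80.4 and 78.2 TPM, against 60.9 and 60.1 TPM in NC libraries (log2 0.47, SE 0.09, adjusted p = 0.00156). MRPS30 (0.42, adjusted p = 0.00368) and MRPL34 (0.38, adjusted p = 0.0122) rose too, and the calls of MRPS10, MRPS35 and MRPS30 held in all settings, while that of MRPL34 is lost without either sip53 library or NC replicate 1. MRPS2 was the member called in opposite directions: 70.3 and 71.4 TPM in sip53 libraries lie above NC (log2 0.37, SE 0.10, adjusted p = 0.0113) and the siGYS1 libraries below it. For the fits below that leave out libraries, the share of all tested genes called is not given. Their counts thus have no background beside them. The rise of MRPS2 is lost without either sip53 library (adjusted p = 0.0658 and 0.0804) or NC replicate 1 (adjusted p = 0.0978). The count of 19 falls is 9 without sip53 replicate 1 or NC replicate 2 and 12 without sip53 replicate 2, and the 7 rises are 3 without either sip53 library or NC replicate 1. Without both length-dependent libraries 18 fell and 10 rose.

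**Figure D4:**
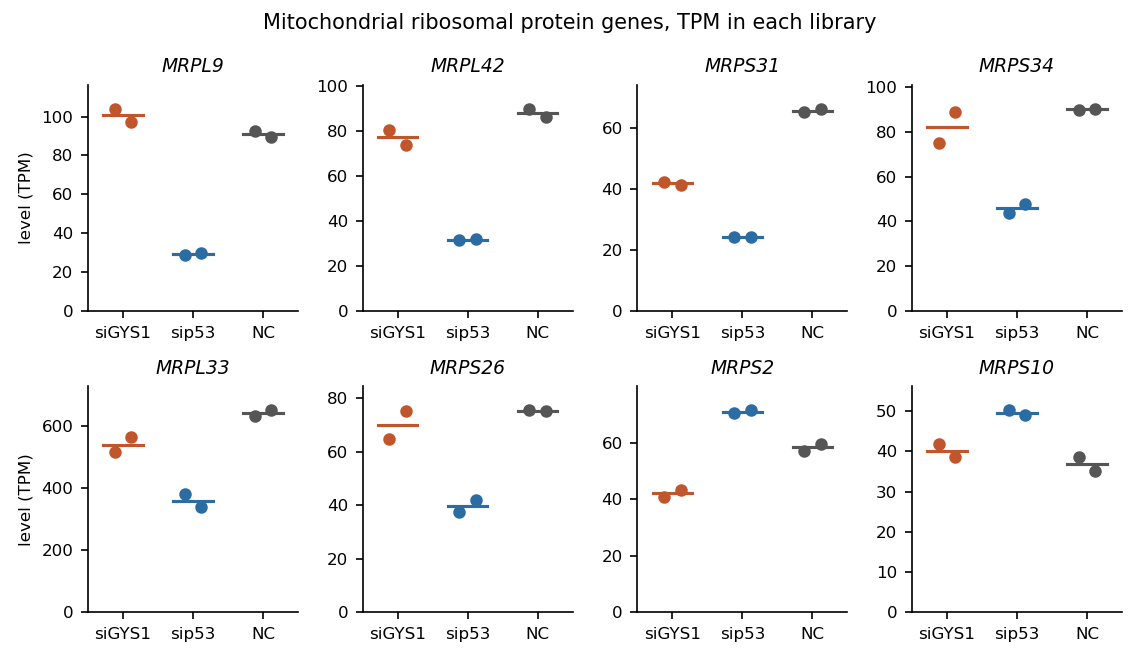
TPM of 8 mitochondrial ribosomal protein genes in each library (points) with group means (lines); the axes start at 0. In MRPL9, MRPL42, MRPS31, MRPS34, MRPL33 and MRPS26 the sip53 libraries lie lowest, and MRPS2 is high with sip53 and low with siGYS1.

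The 3′ UTRs of the falling mitochondrial members were read because 7-letter words had been linked to the falls under sip53 in an earlier analysis of these data, so the words are not independent of the values. Words were searched on the transcript strand of GENCODE 29 protein-coding transcripts. The sites below carry AAGAGAA, in capitals, in GRCh38 coordinates.
MRPL9, chr1:151759649-151759678, minus strand: aagcagaaataAAGAGAAtatgttcttttt
MRPS34, chr16:1771891-1771920, minus strand: gaaagggaataAAGAGAAaagaagtaccca
MRPL33, chr2:27779502-27779531, plus strand: tttgatttataAAGAGAAgactgagggcgg
MRPL42, chr12:93501234-93501263, plus strand: tgggggaatcaAAGAGAAatgtgcctcatt
MRPS31, MRPS26 and RPL6, which fell with sip53, hold neither AAGAGAA nor the overlapping AGAGAAA, and RPS27 holds neither of them nor GTCCTCT, the word linked to falls under siGYS1. AAGAGAA stood in the 3′ UTR of 14.1% of mitochondrial and 12.2% of cytosolic members, against 26.6% of 13039 tested genes. AGAGAAA stood in 21.8% and 13.4%, against 28.9%, and GTCCTCT in 2.56% and 7.32%, against 13.3%; UTR lengths differ between these groups. MRPL9, MRPS34 and MRPL33 share the longer run ATAAAGAGAA, found after their values were seen. It stood in 3 of 78 mitochondrial and 0 of 82 cytosolic members, against 109 of the 13039 tested genes (0.836%). Of these 109 genes, 39 fell with sip53 and 20 rose (35.8% and 18.3%, against 26.5% and 23.4% of all tested genes). Their median log2 fold change was -0.10, against -0.03 for the other genes. The 3474 tested genes that hold the shorter AAGAGAA had the same median with sip53, -0.10, against -0.00 for those without it. The 109 genes and the 39 falls include MRPL9, MRPS34 and MRPL33, from whose sites the run was taken. The share that fell is thus not independent of the values that led to the run. A match is a description of the sequence, and its part in the falls was not tested.

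Set directly against sip53, siGYS1 had 15 of 82 cytosolic members lower and 4 higher (18.3% and 4.88%), against 20.9% of all tested genes lower and 22.5% higher. The share lower is near that of all tested genes. The median was -0.19, against 0.01 over all tested genes. With offsets corrected for length, 22 were lower and 11 higher and the median was -0.05, and limma on FPKM gave 4 lower and 4 higher. Of the 33 tested cytosolic members with a small-subunit symbol, 8 were lower and 0 higher (24.2% and 0%, against 20.9% and 22.5% of all tested genes). Their share lower is near that of all tested genes. Of the 49 with a large-subunit symbol, 7 were lower and 4 higher (14.3% and 8.16%). Apart from RPS27, large differences were the lower RPL17-C18orf32 (-0.69, adjusted p = 0.000221), RPS12 (-0.47, adjusted p = 0.015) and RPL39 (-0.47, adjusted p = 0.017), and the higher RPL36A-HNRNPH2 (0.89), RPL6 (0.77), RPL13 (0.38) and RPL39L (0.36). The calls of RPS12, RPL39, RPL36A-HNRNPH2, RPL13 and RPL39L are each lost without either sip53 library. For the alternative fits of this comparison the share of all tested genes called is not given, so their counts have no background beside them. The 15 lower calls are 47 without siGYS1 replicate 2, 8 without siGYS1 replicate 1, 3 without sip53 replicate 1 and 2 without sip53 replicate 2. The 4 higher calls are 7 without siGYS1 replicate 1, 2 without siGYS1 replicate 2 and 1 without either sip53 library, and the median is -0.06 without siGYS1 replicate 1 and -0.35 without siGYS1 replicate 2.

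Of the mitochondrial members, 13 of 78 were higher with siGYS1 than with sip53 and 10 lower (16.7% and 12.8%, against 22.5% and 20.9% of all tested genes), with a median of -0.02. MRPL9 (1.59, SE 0.10, adjusted p = 2.82e-06), MRPL42 (1.25, SE 0.10, adjusted p = 1e-05), MRPS34 (0.77), MRPS26 (0.75) and MRPS31 (0.71) were higher by the most. MRPS2 (-0.83, SE 0.10, adjusted p = 0.000152), MRPS35 (-0.57), MRPL41 (-0.53), MRPS18A (-0.42) and MRPS10 (-0.39) were lower by the most. The call of MRPS18A is lost without siGYS1 replicate 1 or either sip53 library, that of MRPL41 without sip53 replicate 2 and that of MRPS10 without sip53 replicate 1. Here too the share of all tested genes called is not given for the alternative fits, so their counts have no background beside them. The 13 higher calls are 20 without siGYS1 replicate 1, 6 without sip53 replicate 1 and 8 without sip53 replicate 2. The 10 lower calls are 21 without siGYS1 replicate 2, 6 without siGYS1 replicate 1, 4 without sip53 replicate 1 and 3 without sip53 replicate 2. The median is 0.13 without siGYS1 replicate 1 and -0.13 without siGYS1 replicate 2.

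Paralogs were mostly far below their partners. RPL26 was at 2265 and 2538 TPM with siGYS1, 2838 and 2722 TPM with sip53, and 2470 and 2732 TPM with NC, and did not pass against NC (-0.06 and 0.21), while RPL26L1, at 64.2 to 111 TPM over the libraries, was called lower in both knockdowns (-0.53 and -0.44), with both calls lost without either sip53 library or NC replicate 2. RPL39 and RPL39L, a paralog known from testis and tumours, moved apart with sip53 in their values: RPL39 at 0.37, and RPL39L at 54.1 and 59.2 TPM against 72 and 75.9 TPM with NC (-0.28, adjusted p = 0.0517), which did not pass. RPL22L1 (418 and 447 TPM with sip53, against 507 and 585 TPM with NC) is close in level to RPL22 (569 and 573 TPM with sip53, against 552 and 572 TPM with NC), and neither passed in any comparison of the full fit. RPL7L1, in mean TPM among the lowest tested cytosolic members, lay at 57 to 78.1 TPM in every library. Of the MRPS18 paralogs, MRPS18B fell with sip53 (-0.34, adjusted p = 0.0126), while MRPS18A (0.20, adjusted p = 0.218) and MRPS18C (-0.11, adjusted p = 0.409) did not pass; the MRPS18B call is lost without either sip53 library or NC replicate 2. Near-identical sequence could move reads between paralogs and pseudogenes.

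Of 7 cytosolic ribosomal proteins outside the symbol rule, 3 rose with sip53 and 0 fell (42.9% and 0%, against 23.4% and 26.5% of all tested genes). With siGYS1 0 of the 7 passed in edgeR, DESeq2 or limma, and 0 at an unadjusted p below 0.05 in edgeR. Shares of all tested genes are given for the full edgeR fit only, here and in the gene lists below. Counts from other tools, at an unadjusted p or without a library thus have no background beside them. Among the 3 were the stalk proteins RPLP2 (0.39, adjusted p = 0.0207) and RPLP1 (0.33, adjusted p = 0.0406); 0 of the 7 rose without either sip53 library or NC replicate 1. Of 5 mitochondrial ribosomal proteins outside the rule (DAP3, PTCD3, AURKAIP1, CHCHD1 and GADD45GIP1), 0 passed against NC with either knockdown in edgeR, DESeq2 or limma, and at an unadjusted p below 0.05 in edgeR 1 fell with siGYS1 and 1 rose with sip53. Without siGYS1 replicate 2, 3 fell with siGYS1, and without either siGYS1 library 1 rose with sip53.

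Among 72 ribosome biogenesis factors, 6 rose and 2 fell with siGYS1 (8.33% and 2.78%, against 10.4% and 9.24% of all tested genes). With sip53, 12 rose and 18 fell (16.7% and 25%, against 23.4% and 26.5%). The falls with sip53 and the rises with siGYS1 are near the shares of all tested genes. With siGYS1, GRWD1, a histone-binding factor of pre-ribosomes, had 15.8 and 13.7 TPM, against 25.2 and 26.4 TPM with NC (log2 -0.96, SE 0.11, adjusted p = 0.000597). MDN1 (0.59), the AAA ATPase that remodels the large subunit, and UTP20 (0.49), of the small-subunit processome, rose. With sip53, EIF6 (0.67), which keeps the subunits apart, and SBDS (0.70), which helps to release eIF6, rose, and LYAR (-0.67) fell. The 6 rises with siGYS1 are 0 without either sip53 library or NC replicate 2, 2 without siGYS1 replicate 1 and 3 without NC replicate 1, and the 2 falls are 1 without either sip53 or either NC library. The 18 falls with sip53 are 4 without either sip53 library and 3 without NC replicate 2. Of 15 genes of the RNA polymerase I machinery, which makes rRNA, 1 rose with siGYS1 (POLR1F, 0.44; 6.67%, against 10.4% of all tested genes) and 4 rose and 2 fell with sip53 (26.7% and 13.3%, against 23.4% and 26.5%), with TAF1B at -0.69, RRN3 at 0.63 and POLR1D at 0.43. The Pol I rise with siGYS1 is 2 without siGYS1 replicate 2 and 0 without NC replicate 2. The 4 rises with sip53 are 7 without siGYS1 replicate 2, 1 without sip53 replicate 2, and 2 without sip53 replicate 1 or either NC library, and the 2 falls are 1 without either sip53 library or NC replicate 2.

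Translation factors moved in small numbers. Of 12 elongation factors 0 rose and 0 fell in edgeR or DESeq2 with either knockdown, against 10.4% and 9.24% of all tested genes with siGYS1 and 23.4% and 26.5% with sip53 in edgeR. With limma 1 fell with sip53, and at an unadjusted p below 0.05 in edgeR 1 rose with each knockdown. Without siGYS1 replicate 2, 1 rose with siGYS1 and 2 with sip53. Of 35 initiation factors 4 rose and 0 fell with siGYS1 in edgeR (1 fell at an unadjusted p below 0.05, 0 with DESeq2 and 1 with limma), such as EIF5 (0.44), EIF4G2 (0.38) and EIF2S3 (0.28). The rises are 11.4%, against 10.4% of all tested genes. With sip53, 7 rose and 4 fell (20% and 11.4%, against 23.4% and 26.5%), with EIF4A2 at 0.70, EIF5B at -0.66 and EIF3J at 0.53. The 4 rises with siGYS1 are 0 without NC replicate 2 and 2 without NC replicate 1, siGYS1 replicate 1 or either sip53 library, and 2 fell without siGYS1 replicate 2. With sip53 the 7 rises are 11 without siGYS1 replicate 2 and the 4 falls 2 without sip53 replicate 2.

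Of 22 regulators of ribosomal protein synthesis, a list that holds mTORC1 and MYC pathway genes, 10 rose and 0 fell with siGYS1 in edgeR (1 fell at an unadjusted p below 0.05, 0 with DESeq2 or limma), and 13 rose and 2 fell with sip53. The rises are 45.5% with siGYS1, against 10.4% of all tested genes, and 59.1% with sip53, against 23.4%. The falls with sip53 are 9.09%, against 26.5%. The list was chosen with earlier results of these data known and mixes activators with inhibitors, so these shares are a description only. SESN1, an inhibitor of mTORC1, had 23.4 and 22.6 TPM with siGYS1 and 9.05 and 9.04 TPM with sip53, against 16.7 and 13.7 TPM with NC (0.60, adjusted p = 0.00297; -0.60, adjusted p = 0.000899). It rose with siGYS1 and fell with sip53. EIF4EBP2 (0.57), a repressor of eIF4E, and the S6 kinase gene RPS6KB1 (0.52) rose with siGYS1. MYC, which drives ribosomal protein genes, had 103 and 104 TPM in sip53 libraries, against 51.4 and 47.9 TPM in NC libraries (log2 1.01, SE 0.09, adjusted p = 1.42e-05), its antagonist MXD1 rose with sip53 as well (1.07), and LARP4, a poly(A)-binding La-related protein, fell (-0.85). The 10 rises with siGYS1 are 2 without NC replicate 2, 4 without either sip53 library and 6 without NC replicate 1, and 1 member fell without either siGYS1 library. Of 8 genes of the 5S RNP and MDM2 axis, RPL5 and RPL11 included, 0 passed with siGYS1 in edgeR or limma and 1 rose with DESeq2 and at an unadjusted p below 0.05 in edgeR. With sip53, MDM2 (-1.58, adjusted p = 2.89e-06) and HEATR3 (-0.30) were among 3 falls and RPF2 (0.31) was the 1 rise (37.5% and 12.5%, against 26.5% and 23.4% of all tested genes). That rise is lost without either sip53 library or NC replicate 1, the 3 falls are 1 without either sip53 library or NC replicate 2, and 1 member rose with siGYS1 without siGYS1 replicate 2.

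For the mitochondrial ribosome, 2 of 28 assembly factors rose and 3 fell with siGYS1 (7.14% and 10.7%, against 10.4% and 9.24% of all tested genes), and 3 rose and 7 fell with sip53 (10.7% and 25%, against 23.4% and 26.5%). The falls are near the shares of all tested genes in both comparisons. RPUSD4, a pseudouridine synthase, rose with siGYS1 (0.61), and MPV17L2 (-0.56) and the nuclease gene YBEY (-0.48) fell. With sip53 the rRNA methyltransferase genes METTL15 (-0.90, SE 0.11, adjusted p = 0.000127) and MRM2 (-0.89, SE 0.10, adjusted p = 8.62e-05) and YBEY (-0.58) fell. With siGYS1 the 2 rises are 1 without any 1 library other than siGYS1 replicate 2, and the 3 falls are 6 without siGYS1 replicate 2, 0 without NC replicate 2 and 1 without any 1 of the other libraries. With sip53 the 3 rises are 1 without either sip53 library or NC replicate 1 and the 7 falls 2 without sip53 replicate 1 and 4 without sip53 replicate 2. Of 17 mitochondrial translation factors 2 rose and 1 fell with siGYS1 (11.8% and 5.88%, against 10.4% and 9.24%), and 2 rose and 6 fell with sip53 (11.8% and 35.3%, against 23.4% and 26.5%). MTIF3, the initiation factor, fell in both (-0.64, adjusted p = 0.00491, with siGYS1; -0.51, adjusted p = 0.00441, with sip53), LRPPRC (0.37) and GFM1 (0.30) rose with siGYS1, and MRRF (-0.52) and MTRFR (-0.51) fell with sip53. Their 2 rises with siGYS1 are 0 without either sip53 library or NC replicate 2 and 1 without siGYS1 replicate 1 or NC replicate 1, the fall is 2 without siGYS1 replicate 2, and the 2 rises with sip53 are 1 without either sip53 library or NC replicate 2.

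Of the 13 mRNAs that mitochondrial ribosomes translate, 1 fell with siGYS1 (7.69%, against 9.24% of all tested genes) and 4 rose and 3 fell with sip53 (30.8% and 23.1%, against 23.4% and 26.5%). MT-CO2 was at -0.34 with siGYS1 (adjusted p = 0.047), a call lost without siGYS1 replicate 1, NC replicate 2 or either sip53 library. With sip53, MT-CO3 had 13667 and 13597 TPM, against 21836 and 22797 TPM with NC (log2 -0.62, SE 0.09, adjusted p = 0.000415). MT-CO1 (-0.42) fell and MT-ND2 (0.41) rose. The 4 rises with sip53 are 1 without sip53 replicate 2 and 2 without NC replicate 1, and with siGYS1 2 rose without either siGYS1 library and 1 without either NC library.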

How the data were processed

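Poly(A) RNA of 6 TOV21G libraries was sequenced, per the labels' protocols. The deposited table gives, per the file headers, FPKM, TPM, read counts and normalized read counts. The authors' read counts are expected counts, since 16.8% to 18.1% of values per library are not whole (tolerance 1e-09). The submitters' processing notes name several aligners and counters (HISAT2, STAR, TopHat; featureCounts, HTSeq, Salmon) without roles, and mm10, although the identifiers are human. How strand and multiple mapping were treated is not stated. The normalized read count, a deposited signal, is the count times 1 constant per library and was not tested.

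The counts, rounded, went into edgeR 4.0.16 under R 4.3.3 with filterByExpr (minimum count 10; 13235 genes kept, 3675 removed), TMM factors (0.9675 to 1.0399), all 6 libraries in 1 quasi-likelihood fit with group as the term, 3 residual and 6.67 prior degrees of freedom, common dispersion 0.00639. Calls are Benjamini-Hochberg adjusted p below 0.05 over all tested genes. An SE is the absolute log2 fold change over the square root of F. The fit was also run on counts simulated from its own means and dispersions. These counts hold no dependence on transcript length and no shift shared between members, so the run does not cover either. Replicates differed beyond counting noise (chi-square per gene 3.41 to 15.81), so none was a duplicate.

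Named members are GYS1, RPL10A, RPL5, RPL11, the 5 largest called rises and falls of each set and comparison, the 5 highest and 2 lowest in TPM, paralogs, and up to 3 called genes of each list; others (MRPS26 with sip53, RPS28, RPS27AP5, RPS19BP1, RPS27L) were named after their values were seen. Members and lists were chosen with earlier results of these data known. Alternatives were RLE factors, TMM without members, length-corrected offsets (lowess span 0.3), no filter, DESeq2 1.42.0, limma 3.58.1 on the log2 of FPKM plus 1, 2 groups at a time, replicate blocks and leaving out libraries. The level of the sip53 target and some genes that the rule names are not reported here.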

Additional observations from a re-analysis of the deposited data

Results flagged for a closer look

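The members named below differ between the knockdowns by the direct test of siGYS1 against sip53 (edgeR quasi-likelihood, adjusted p below 0.05). Values are log2 differences of siGYS1 against sip53. Lower with siGYS1 were RPS27 (-1.19), MRPS2 (-0.83), RPL17-C18orf32 (-0.69), MRPS35 (-0.57), MRPL41 (-0.53), RPL39 (-0.47), RPS12 (-0.47), MRPS18A (-0.42) and MRPS10 (-0.39). Higher with siGYS1 were MRPL9 (1.59), MRPL42 (1.25), RPL36A-HNRNPH2 (0.89), RPL6 (0.77), MRPS34 (0.77), MRPS26 (0.75), MRPS31 (0.71), RPL13 (0.38) and RPL39L (0.36). Of these, RPS27, RPL6, RPL17-C18orf32, MRPS31, MRPS2, MRPL9, MRPL42, MRPS34, MRPS35 and MRPS26 kept the direct call in all 16 alternative settings.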

How the results depend on the processing

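Of the named members called in the full fit, 2 of 8 kept the call in all 16 alternative settings with siGYS1 against NC, 11 of 23 with sip53 against NC and 11 of 26 with siGYS1 against sip53. The ratios of the mean TPM share moved by less than their SD with read counts in place of TPM and without the mitochondrially encoded transcripts. In the counts below, higher and lower are members past the threshold, and causes of the moves were not tested. Shares of all tested genes are given for the full fit only, so counts of members in alternative fits have no background beside them.

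Leaving out 1 library at a time gave, for cytosolic members, 0 to 1 higher and 1 to 15 lower with siGYS1 against NC (median -0.21 to 0.04), 1 to 19 higher and 1 to 9 lower with sip53 against NC, and 1 to 7 higher and 2 to 47 lower with siGYS1 against sip53 (median -0.35 to -0.06). For mitochondrial members it gave 0 to 2 higher and 1 to 23 lower with siGYS1 (median -0.22 to -0.04), 3 to 8 higher and 9 to 25 lower with sip53, and 6 to 20 higher and 3 to 21 lower in the direct comparison (median -0.13 to 0.13). A group left with 1 library is assumed to vary like the others.

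Length-corrected offsets gave 7 cytosolic members higher with siGYS1, 30 higher and 10 lower with sip53 and 11 higher in the direct comparison. They gave 4 mitochondrial members higher with siGYS1 (median -0.02), 11 higher with sip53 and 23 higher in the direct comparison. Without the filter on low counts, 0 cytosolic members were higher and 1 lower with siGYS1, 4 higher and 2 lower with sip53 and 2 higher in the direct comparison, and 2 mitochondrial members were lower with siGYS1. With only both compared groups in the fit, 1 cytosolic and 2 mitochondrial members were lower with siGYS1 and 20 cytosolic members higher with sip53. DESeq2 gave 13 cytosolic members higher with sip53, 2 higher and 24 lower in the direct comparison, and 3 mitochondrial members lower with siGYS1. Limma on FPKM gave 2 cytosolic members higher with sip53 and 4 lower in the direct comparison, and 4 mitochondrial members higher and 30 lower with sip53 (median -0.23) and 6 lower in the direct comparison. RLE factors gave 1 mitochondrial member higher with siGYS1.

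Replicate numbers do not pair the libraries by any label. Same-numbered libraries correlate at 0.60 (siGYS1 and NC), 0.13 (sip53 and NC) and 0.26 (siGYS1 and sip53) in their deviations from the group means. With the replicate block, 9 cytosolic members were lower with siGYS1, 25 higher with sip53 and 42 lower in the direct comparison, and 2 mitochondrial members were higher and 15 lower with siGYS1. With the replicate block and length-corrected offsets, 14 cytosolic members were higher and 4 lower with siGYS1, 38 higher and 11 lower with sip53, and 11 higher and 26 lower in the direct comparison. The same fit gave 8 mitochondrial members higher and 8 lower with siGYS1 (median -0.02), 14 higher with sip53 and 27 higher in the direct comparison.

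Without NC replicate 2 and siGYS1 replicate 1 together, a setting chosen after seeing the data, 19 cytosolic members were higher and 1 lower with siGYS1 (median 0.18), 53 higher with sip53 and 10 higher in the direct comparison. In that fit 2 mitochondrial members were higher and 1 lower with siGYS1 (median 0.05) and 21 higher in the direct comparison (median 0.13). RPL11 and RPL14 then passed in the other direction with siGYS1, both at 0.24; with single libraries left out they ran from -0.25 to 0.08 and from -0.18 to 0.14. RPS27 passed with sip53 at -0.15 with length-corrected offsets, with and without the replicate block. RPS29 turned to 0.03 in the direct comparison with length-corrected offsets and to 0.02 with the block as well, and RPL22 passed with siGYS1 at 0.12 in the fit with both. Depth limits RPL3L, at 0.04 to 0.11 TPM, which was not tested.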
